A study of Mus musculus with 12 samples.

Results

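Collagens, laminins, fibulins, fibrillins and 9 further genes of the extracellular matrix were followed through mouse kidney libraries. The genes were chosen by name, as every protein-coding gene whose symbol carries a collagen, laminin, fibulin or fibrillin stem, leaving out Col4a3bp, together with Bgn, Dcn, Lum, Postn, Fn1, Eln, Sparc, Hmcn1 and Hmcn2. The choice held 66 of the 15473 protein-coding genes in the deposited tables. Of these, 65 were in the whole kidney table, 50 in the F4/80+ table and 49 in both, and the 16 held by the kidney table alone were not analysed here in F4/80+ libraries. By their known place in tissue, 23 were listed as interstitial, 19 as basement membrane and 24 as neither.

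The mice had been made with CRISPR-Cas9 and were homozygous for 1 of the alleles of a missense polymorphism of Sh2b3, the gene of the adaptor protein LNK. The groups were named Arg/Arg and Trp/Trp after the amino acid encoded. Every mouse had received angiotensin II, a hormone used to induce hypertension, for 4 weeks, and a group without it was not part of the samples. The 12 libraries of polyadenylated RNA formed 4 groups of 3 biological replicates, namely Arg/Arg kidney, Trp/Trp kidney, and cells taken with anti-F4/80 microbeads after a Percoll gradient from a separate set of kidneys. The labels gave no age, sex or strain background, and they did not say whether both sets of kidneys came from the same mice.

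The interstitial matrix lies between tubules and vessels and is built on fibrils of collagens I, III and V, which are coated by small proteoglycans and joined by fibronectin and elastic fibres. It is made largely by fibroblasts and pericytes, and its growth is the hallmark of kidney fibrosis. Basement membranes are thin sheets under epithelia and endothelia, in which a laminin network and a collagen IV network are held together by nidogen and perlecan. In the glomerulus the mature collagen IV network is made of the alpha3, alpha4 and alpha5 chains by podocytes, whereas the alpha1 and alpha2 chains are found in basement membranes throughout the body.

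Promoter sequence is shown for the genes on which the results below turn most, from the RefSeq annotation of GRCm38.p6 (the mm10 assembly), read 5′ to 3′ on the gene's own strand. Each window covers the 250 bases before the start of the gene in that annotation, which for Hmcn2 lies upstream of the GENCODE start given with its values below. Capitals mark matches on either strand to the TATA box (TATAAA), the CCAAT box (CCAAT) and the GC box (GGGCGG), which do not overlap one another here. Col3a1, at chr1:45311288-45311537 on the plus strand, is an interstitial collagen gene. Lama5, at chr2:180225860-180226109 on the minus strand, is a laminin gene. Hmcn2, at chr2:31314082-31314331 on the plus strand, was the matrix gene with the smallest genotype p in kidney.
Col3a1: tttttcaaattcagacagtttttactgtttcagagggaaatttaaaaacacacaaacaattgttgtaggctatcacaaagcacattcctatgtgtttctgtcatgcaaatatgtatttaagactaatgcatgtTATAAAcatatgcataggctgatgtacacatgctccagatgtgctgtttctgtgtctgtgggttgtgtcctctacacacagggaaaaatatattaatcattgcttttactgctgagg
Lama5: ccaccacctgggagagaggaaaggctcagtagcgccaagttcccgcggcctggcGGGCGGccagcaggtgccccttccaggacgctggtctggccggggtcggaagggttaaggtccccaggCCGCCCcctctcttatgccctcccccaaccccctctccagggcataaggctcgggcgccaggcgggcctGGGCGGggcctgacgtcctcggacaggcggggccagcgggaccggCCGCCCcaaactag
Hmcn2: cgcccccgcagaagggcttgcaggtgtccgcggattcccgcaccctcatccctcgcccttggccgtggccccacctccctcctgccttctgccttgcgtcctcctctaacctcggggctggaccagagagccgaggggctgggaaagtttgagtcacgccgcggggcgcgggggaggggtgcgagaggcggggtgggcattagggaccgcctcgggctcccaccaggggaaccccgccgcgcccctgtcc

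The Col3a1 window was 35.2% G or C and held 1 TATA box, the Lama5 window was 72.4% G or C and held 4 GC boxes, and the Hmcn2 window was 72.4% G or C with no match to the 3 motifs. Among the 48 matrix genes with a window, 5 held a TATA box (10.4%), 16 a CCAAT box (33.3%) and 26 a GC box (54.2%). The shares over all 12128 genes with a window were 7.32%, 35.9% and 55.3%. The 15 interstitial windows had a median of 59.2% G or C, and a TATA box was found in 1, that of Col3a1. The 5 laminin windows had a median of 58.8% G or C, and 2 of them held a GC box. The Col3a1 and Lama5 windows were thus not typical of their lists. A match is a run of letters and not a shown binding site. A further stretch is printed because it lies between the gene starts of Col4a3 and Col4a4. In the GENCODE annotation of GRCm38, Col4a4 (chr1:82448423-82586849, minus strand) and Col4a3 (chr1:82586921-82722059, plus strand) are read away from each other and are only 71 bases apart, at chr1:82586850-82586920, and none of the 3 motifs lies in these bases, given on the plus strand.
Col4a4-Col4a3 gap: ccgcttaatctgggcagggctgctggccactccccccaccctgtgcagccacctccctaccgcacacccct

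Kidney libraries held 19.6 to 54.7 M counts (M for mega) and F4/80+ libraries 35.9 to 51.6 M. Nuclear protein-coding genes took at least 17.8 M of these in a kidney library and 6.9 to 11.1 M in an F4/80+ library. Levels are given as CPM, the count per 1 M counts of the latter. The label F4/80+ was not borne out by its defining marker. Adgre1, which encodes F4/80, was at 7.40 ± 6.45 CPM in the F4/80+ libraries and at 6.23 ± 1.76 CPM in whole kidney (SD, n = 6), with a log2 fold change of 0.25. Over 13 macrophage markers the edgeR test at an adjusted p under 0.05 found 3 higher (32.4% of all genes) and 5 lower (31.8%) in these libraries than in kidney, and tubule markers were abundant in both, so the term preparation is used below. Trp/Trp kidney replicate 1 stood apart from the other 5 kidney libraries. It had the highest level of all 6 for 12 of 12 fibroblast, pericyte and smooth muscle markers (summed level 636 CPM against 327 to 362 CPM in the others), for 8 of 8 urothelium and papilla markers (174 against 25.9 to 41.1 CPM), for 8 of 9 tested fat markers (488 against 260.0 to 310.1 CPM over 10 genes) and for 0 of 12 proximal tubule markers (32217 against 34224 to 38602 CPM). It was also the highest for 9 of 10 podocyte markers (766 against 508 to 605 CPM) and for 9 of 12 endothelial markers. The same held for 6 of 7 tested B and plasma cell markers (257 against 130 to 140 CPM over 10 genes). Kidney results that this library moved are therefore given with and without it.

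Collagen IV chains were among the most abundant matrix transcripts of whole kidney. Per kilobase of exon, the highest were Sparc, a matrix glycoprotein that binds collagen, at 49.9 CPM per kb, Col4a1 at 43.3, Col18a1, the source of endostatin, at 35.7, Col4a3 at 34.9, Col4a4 at 33.8 and Col4a2 at 33.3 CPM per kb. Biglycan (Bgn), a small proteoglycan, followed at 32.6 CPM per kb, and Lamb1, a laminin beta chain, reached 20.8 CPM per kb. The fibril-forming collagens stood lower, with Col1a2 at 6.93, Col3a1 at 6.30 and Col1a1 at 6.14 CPM per kb. The pair Col4a3 and Col4a4 and the pair Col4a1 and Col4a2 were at like levels in kidney. Summed over the 16 interstitial genes of both tables, kidney libraries held 845 to 1505 CPM, and over the 19 basement membrane genes 2148 to 2381 CPM.

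Between genotypes, no matrix gene passed the test in kidney. With Benjamini-Hochberg adjustment, the quasi-likelihood test of edgeR called 0 of the 61 matrix genes tested and 0 of all 14464 genes (0%), and DESeq2 called 1 of the matrix genes and 15 of all genes (0.0977%). The 4 matrix genes left out for low counts were Col11a1, Col17a1, Col28a1 and Fbn2. At an unadjusted p under 0.05, edgeR counted 7 matrix genes as higher in Trp/Trp, against 3.68% of all genes, and 0 as lower, against 2.03%. The 7 were Hmcn2, Col14a1, Bgn, Fn1, Dcn, Fbn1 and Fbln1. In whole tissue, fewer cells of a type and less RNA per cell cannot be told apart.

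**Figure D1:**
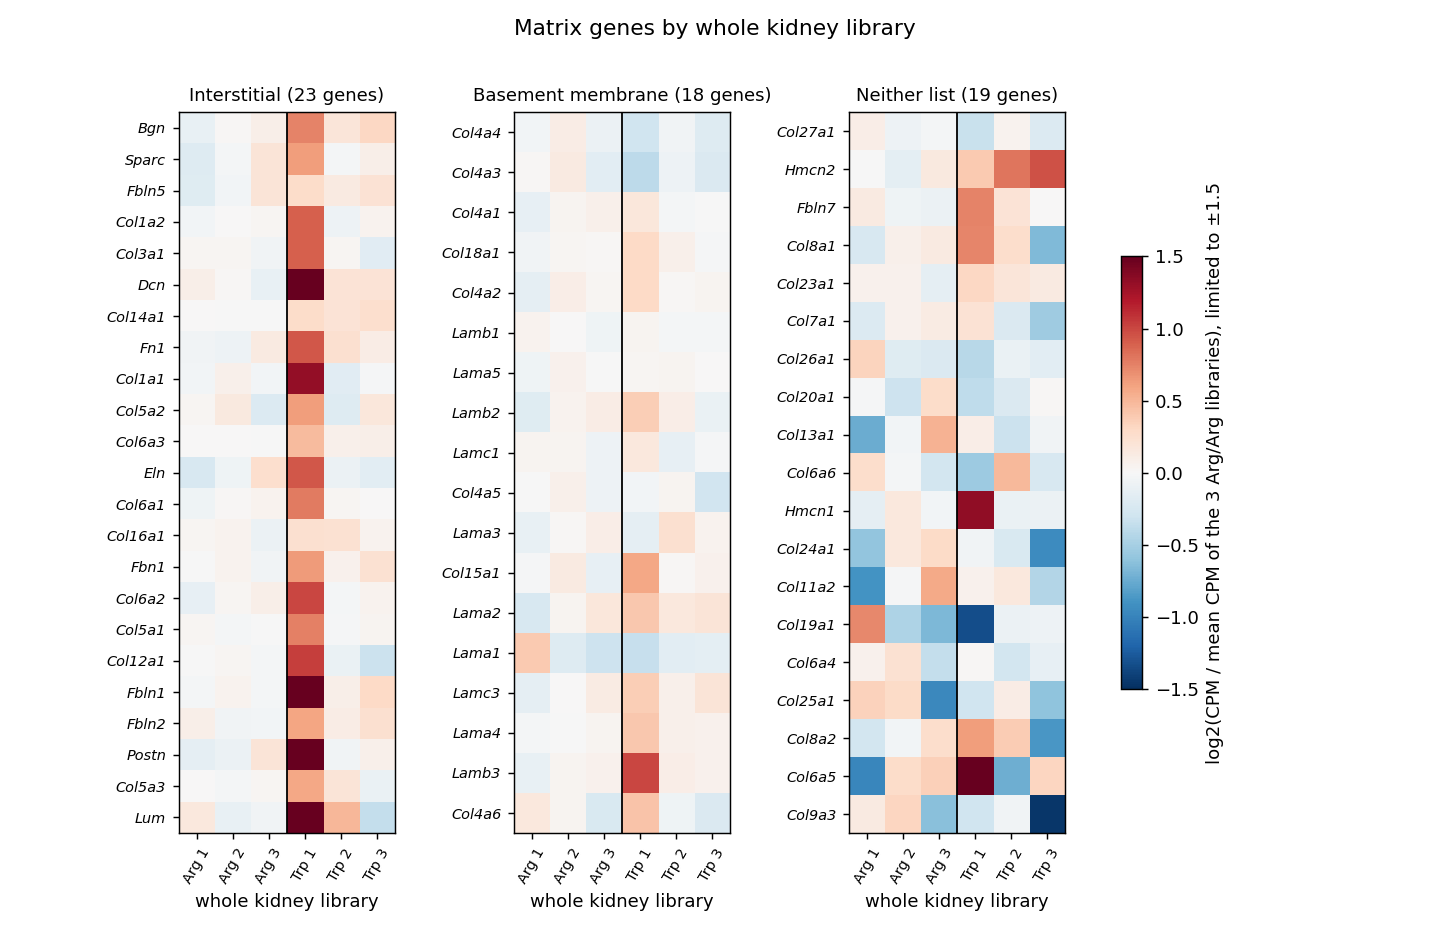
Levels of 60 of the tested matrix genes in each whole kidney library (columns), as log2 of CPM over the mean CPM of the 3 Arg/Arg libraries (colour, limited to ±1.5), in panels for interstitial, basement membrane and other genes. The column of Trp/Trp replicate 1 is red for all 23 interstitial genes, and Hmcn2 is red in all 3 Trp/Trp columns.

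Hmcn2 (chr2:31314415-31460738, plus strand) encodes hemicentin-2, a large protein of the immunoglobulin superfamily found in extracellular matrix. It was at 11.1, 10.1 and 12.3 CPM in Arg/Arg kidney replicates 1, 2 and 3 and at 14.7, 19.5 and 21.5 CPM in Trp/Trp kidney replicates 1, 2 and 3. Every Trp/Trp library was above every Arg/Arg library, and the library that stood apart was the lowest of the Trp/Trp libraries. The log2 fold change was 0.72 ± 0.157 (SE), with an unadjusted p of 0.00132 and an adjusted p of 0.843 in edgeR. Adjusted p was 0.0133 in DESeq2 and 0.0126 in the authors' deposited table, where the log2 fold change was also 0.72, and it was 0.26 in edgeR without Trp/Trp kidney replicate 1 (log2 fold change 0.88). The related Hmcn1, which encodes hemicentin-1, was at 1.63 to 2.00 CPM in Arg/Arg kidneys and at 4.51, 1.68 and 1.69 CPM in Trp/Trp replicates 1, 2 and 3, so that its log2 fold change of 0.54 turned to -0.10 without that library.

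Col14a1 encodes a collagen that sits on the surface of collagen I fibrils. Its Arg/Arg kidneys lay at 44.8, 44.4 and 44.3 CPM and its Trp/Trp kidneys at 53.9, 51.2 and 53.1 CPM. The groups did not overlap, and the gap was small beside most differences named here, with a log2 fold change of 0.23 ± 0.0520 (SE), an unadjusted p of 0.00183 and an adjusted p of 0.843 in edgeR, and 0.23 again without Trp/Trp replicate 1 (unadjusted p = 0.00454, edgeR). In F4/80+ preparations Col14a1 was at 0.126 to 4.51 CPM and its genotypes overlapped.

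Among the small proteoglycans, Bgn was at 156, 171 and 179 CPM in Arg/Arg and at 284, 192 and 209.8 CPM in Trp/Trp kidneys. Its groups did not overlap, and its log2 fold change of 0.41 (edgeR unadjusted p = 0.0071) was 0.25 without Trp/Trp replicate 1. Decorin (Dcn), which binds collagen fibrils and TGF-beta, was at 39.8, 37.8 and 34.9 CPM in Arg/Arg and at 124, 43.1 and 43.2 CPM in Trp/Trp kidneys. Its groups did not overlap either, but 1 library made most of the difference, as the log2 fold change of 0.88 became 0.20 without it. Lumican (Lum), a regulator of fibril width, overlapped between genotypes at 1.80 to 2.17 and 1.52 to 6.01 CPM, and its log2 fold change of 0.82 became 0.21 without the same library.

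The fibril-forming collagens overlapped between genotypes throughout. Col1a1, the alpha1 chain of collagen I, was at 31.9, 34.7 and 31.9 CPM in Arg/Arg and at 81.6, 29.3 and 32.4 CPM in Trp/Trp kidneys. Only Trp/Trp replicate 1 was above the Arg/Arg range, and the log2 fold change of 0.52 (unadjusted p = 0.14, edgeR) was -0.10 without it. Col1a2, the partner chain, was at 140.3 CPM in that library and at 71.5 to 78.2 CPM in the other 5, and Col3a1 at 102 against 48.7 to 55.9 CPM. Col6a1, a chain of the beaded filaments of collagen VI, was at 39.6 against 22.1 to 24.0 CPM, and its log2 fold change went from 0.30 to 0.02 without it. None of the 9 fibrillar collagens tested reached an unadjusted p of 0.05.

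Elastic fibre and glycoprotein genes had a similar layout. Fibulin-1 (Fbln1) was at 7.69 to 8.08 CPM in Arg/Arg kidneys and at 27.3, 8.28 and 9.61 CPM in Trp/Trp kidneys. Its groups did not overlap, and its log2 fold change of 0.92 became 0.18 without Trp/Trp replicate 1. Fibronectin (Fn1) was at 36.8, 36.2 and 42.0 CPM against 73.1, 45.1 and 41.3 CPM, its genotypes overlapped, and its log2 fold change went from 0.46 to 0.18. Elastin (Eln) was at 46.5 CPM in Trp/Trp replicate 1 and at 20.7 to 29.1 CPM in the other kidneys, and periostin (Postn), a matricellular protein of remodelling tissue, at 14.2 against 4.02 to 5.05 CPM. Their log2 fold changes went from 0.31 to -0.11 and from 0.79 to 0.01 once that library was left out. Fibrillin-1 (Fbn1), the backbone of microfibrils, was at 16.7 to 17.9 CPM in Arg/Arg and at 26.9, 18.1 and 20.3 CPM in Trp/Trp kidneys, without overlap, and its log2 fold change went from 0.31 to 0.14. Fibulin-5 (Fbln5), an organiser of elastic fibres, was at 121, 133 and 156 CPM against 165, 150.0 and 159 CPM, with 0.19 and 0.18 as log2 fold changes with and without that library.

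Basement membrane genes had kidney log2 fold changes between -0.24 and 0.44, and none reached an unadjusted p of 0.05. Col4a1 was at 291, 328 and 334 CPM in Arg/Arg and 358, 310.1 and 317 CPM in Trp/Trp kidneys, with a log2 fold change of 0.03 ± 0.0699 (SE), and Col4a2 had 0.11. Lama5, the laminin alpha chain of mature kidney basement membranes, was at 136, 148 and 141 CPM against 145, 145 and 142 CPM, with 0.01 ± 0.0546 (SE), and Lamc1, the common gamma chain, had -0.01. Col4a3 lay on the lower side in Trp/Trp, at 378, 411 and 334 CPM in Arg/Arg and 286, 356 and 322 CPM in Trp/Trp kidneys, and Col4a4 at 369.5, 412 and 359 against 309.6, 368 and 333 CPM. Both sets overlapped, and the lowest library in each was Trp/Trp replicate 1. Their log2 fold changes were -0.24 (unadjusted p = 0.0521, edgeR) and -0.19 (unadjusted p = 0.0571, edgeR), and -0.14 and -0.12 without that library. Col4a5 and Col4a6, which lie head to head on the X chromosome, had -0.10 and 0.06, Lamb2, the laminin beta chain of the glomerulus and the neuromuscular junction, 0.12, and the multiplexins Col15a1 and Col18a1 0.22 and 0.11. Without Trp/Trp replicate 1 the last 3 genes had 0.00, 0.04 and 0.03.

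Read as groups, 42 of the 61 matrix genes had a log2 fold change above 0 in kidney against 50.6% of all genes, and their median was 0.20 against 0.00 over all genes. Without Trp/Trp replicate 1, 33 of 62 were above 0 against 50.4% of all genes, the median was 0.01, and the genes at an unadjusted p under 0.05 were Hmcn2, Col14a1, Bgn and Dcn, all higher (2.76% of all genes), with 0 lower (2.19%). The interstitial genes went from 23 of 23 above 0 with a median of 0.31 to 17 of 23 with a median of 0.08, and the basement membrane genes from 12 of 19 with 0.05 to 10 of 19 with 0.00. Trp/Trp replicate 1 was the highest kidney for 23 of 23 interstitial genes, at a median of 1.70 times the mean of the other 5, for 12 of 19 basement membrane genes, at 1.22 times, and for 35.1% of all genes, at 1.04 times. Its stromal, urothelial and fat marker levels given above moved with these counts, and their part in the result was not tested. In 10 matrix genes all Trp/Trp kidneys were above all Arg/Arg kidneys (16.4% against 6.59% of all genes) and in 0 below (against 3.67%). With the remaining 5 libraries these counts were 10 (16.4%) and 2 (3.28%), against 10.2% and 10.8% of all genes. The share above was unchanged in matrix genes. The shares over all genes rose, as fewer libraries separate more readily, so the 2 settings are not on 1 scale. Macrophage markers also lay higher in Trp/Trp kidneys. At an unadjusted p under 0.05 in edgeR, 9 of 14 were higher (3.68% of all genes), and 6 of 14 without Trp/Trp replicate 1 (2.76%). Their summed level was 223 to 245 CPM in Arg/Arg and 259 to 348 CPM in Trp/Trp kidneys. Their part in the result was not tested.

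**Figure D2:**
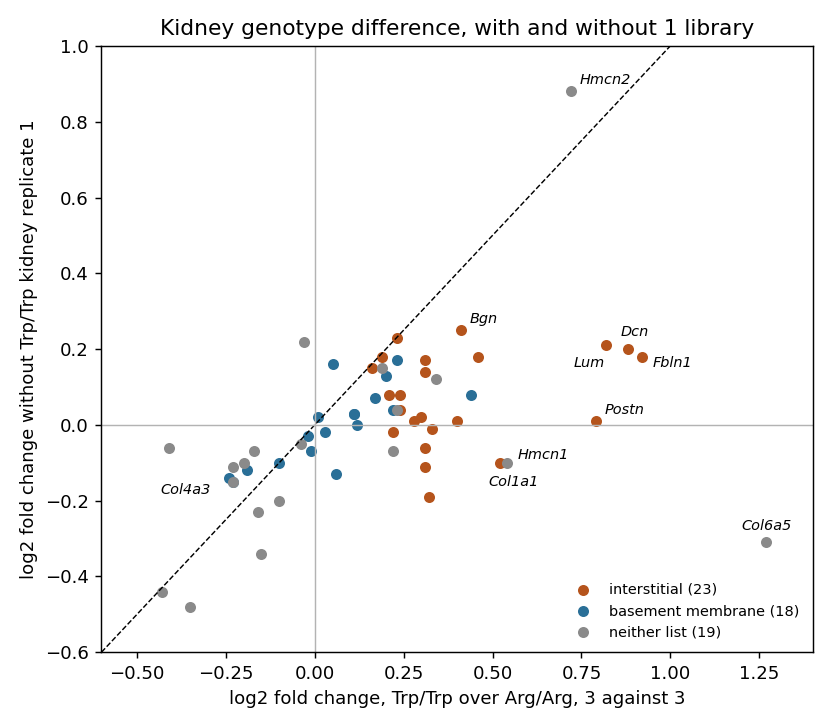
Log2 fold change of Trp/Trp over Arg/Arg kidneys for 60 matrix genes with all 6 libraries (horizontal axis) and without Trp/Trp replicate 1 (vertical axis), coloured by matrix class, with the dashed line at equality. Hmcn2 lies above the line at 0.72 and 0.88, while Dcn, Fbln1, Postn and Col1a1 lie far below it.

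The other genes of the matrix pathway gave 0 calls in kidney by the same edgeR test. At an unadjusted p under 0.05, 0 of 10 further basement membrane components and 0 of 25 genes of collagen modification and crosslinking were counted, 1 protease gene higher (Mmp11, 0.34) and 1 lower (Adamts1, an aggrecanase, -0.34) of 19, and 2 receptor genes higher of 21. Over all genes, 3.68% were higher and 2.03% lower at this p. The receptor genes were Cd44, the hyaluronan receptor, at a log2 fold change of 0.84, and Itga3, an integrin chain that binds laminin, at 0.15. Without Trp/Trp replicate 1, 0 receptor genes were counted, and of the proteases 0 were higher and 1 lower (2.76% and 2.19% of all genes).

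In F4/80+ preparations the genotypes differed by larger folds with wider spread, and again no matrix gene passed. The edgeR test called 0 of 43 matrix genes and 0 of 15225 genes in all (0%), and DESeq2 0 and 4 (0.0234%). Col1a1, Col3a1, Lamc3, Col8a1, Col11a2, Col17a1 and Col23a1 were left out for low counts. At an unadjusted p under 0.05, 8 matrix genes were higher in Trp/Trp, against 4.43% of all genes, and 1 was lower, against 3.61%. In 3 genes, Col1a2, Col18a1 and Col7a1, all Trp/Trp preparations were above all Arg/Arg preparations (6.98% of those tested against 7.19% of all genes), and in 0 below (against 3.33%).

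Col1a2 was at 1.60, 0.632 and 1.47 CPM in Arg/Arg preparations and at 4.67, 4.58 and 2.76 CPM in Trp/Trp preparations. The groups were apart at levels far under the kidney's, with a log2 fold change of 1.57 ± 0.481 (SE) and an adjusted p of 0.605 in edgeR. Col18a1 was at 167, 95.9 and 91.1 CPM against 207, 192 and 208 CPM, which gave 0.69 ± 0.235 (SE) and the same adjusted p of 0.605 in edgeR. Lama3, the alpha chain of laminin-332, was at 62.1, 93.6 and 80.8 CPM against 66.0, 49.9 and 53.3 CPM, overlapping, with -0.63 ± 0.271 (SE) and an adjusted p of 0.609 in edgeR. Col7a1, the anchoring fibril collagen that laminin-332 binds, was at 1.74, 2.02 and 0.783 CPM against 4.397, 2.94 and 3.15 CPM.

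The other genes past an unadjusted p of 0.05 were Col5a2, Fbln5, Fn1, Sparc and Lamb2, with log2 fold changes of 1.06, 1.01, 0.92, 0.66 and 0.61, all with overlapping groups. Fbln5, for example, was at 43.2, 19.2 and 19.4 CPM in Arg/Arg and at 27.8, 90.8 and 59.5 CPM in Trp/Trp preparations. Col4a3 was again on the lower side in Trp/Trp, at 446, 367 and 447 CPM against 327, 372 and 299.6 CPM, with overlap and a log2 fold change of -0.47 (unadjusted p = 0.058, edgeR). Hmcn2 did not follow its kidney values, at 7.12, 20.1 and 12.6 CPM against 18.7, 2.11 and 10.4 CPM, a log2 fold change of -0.48 (unadjusted p = 0.469, edgeR), and Col4a4, at -0.08, did not follow Col4a3. Bgn, Dcn, Fbn1 and Eln, which had 0.55, 0.66, 0.59 and 0.50, overlapped between the genotypes.

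The median log2 fold change over the 43 genes was 0.50 against 0.01 over all genes, and 31 were above 0 against 51.1% of all genes. With no scaling factors both medians moved, to 0.71 and 0.23. Over the fits that left out a library in turn the median of the matrix genes was 0.22 to 0.63. The 14 interstitial genes tested had a median of 0.59, which ranged from 0.27 to 1.06 over the fits that left out a library, and the 18 basement membrane genes one of 0.22, with a range of 0.11 to 0.29. The highest interstitial median was that without Arg/Arg preparation 1. Arg/Arg preparation 1 was nearer to the Trp/Trp preparations than to the other Arg/Arg preparations in several of these genes. Fbln2, a fibulin of vessel walls and basement membrane zones, was at 24.6 CPM in it and at 8.21 and 8.12 CPM in Arg/Arg preparations 2 and 3, against 14.1 to 26.2 CPM in Trp/Trp preparations. Without Arg/Arg preparation 1, 15 of 45 matrix genes were higher and 3 lower at an unadjusted p under 0.05, against 10.1% and 7.38% of all genes, and still 0 passed in edgeR.

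Cell markers moved with these values. The summed level of 10 fibroblast, pericyte and smooth muscle markers was 787, 471 and 315 CPM in Arg/Arg preparations 1, 2 and 3 and 568, 1127 and 1063 CPM in Trp/Trp preparations 1, 2 and 3. The 12 proximal tubule markers summed to 28533, 57117 and 52002 CPM and to 33949, 18420 and 29432 CPM in the same order, and the 12 distal nephron markers to 15250.0, 6453 and 6000 CPM and to 14283, 21506 and 12956 CPM. The preparations with the most proximal tubule signal, Arg/Arg 2 and 3, were those with the lowest summed interstitial levels, at 138 and 124 CPM against 259 to 484 CPM in the other 4. The 13 macrophage markers summed to 235, 130.4 and 123 CPM and to 191, 255 and 274.5 CPM in that order. Of the 12 tested, 7 were higher and 1 lower in Trp/Trp at an unadjusted p under 0.05 in edgeR (4.43% and 3.61% of all genes). Their median log2 fold change was 1.08. Of 10 fibroblast, pericyte and smooth muscle markers 0 reached this p, but all 10 were above 0, with a median of 0.59. Without Arg/Arg preparation 1, 4 of these 10 were higher at this p (10.1% of all genes). With all 6 preparations, 7 of 12 proximal tubule markers were lower and 7 of 12 distal nephron markers higher at this p. The part of these markers in the result was not tested. Among the other matrix pathway genes, 0 passed in edgeR, and those at an unadjusted p under 0.05 were 2 of 8 basement membrane components (Npnt, encoding nephronectin, 0.73, and Hspg2, encoding perlecan, 0.68), 3 of 21 modification genes (Lox and Loxl2, lysyl oxidases, each 1.77, and Pcolce 0.77), 2 of 14 proteases (Mmp13 1.35 and Mmp2 1.05), and 4 of 20 receptors (Bcam 0.84, Sdc1 1.04 and Itgb4 0.66 higher, Itgb8 -0.99 lower). The shares over all genes were again 4.43% higher and 3.61% lower. Without Arg/Arg preparation 1 the modification genes counted were 5 higher and 1 lower of 21. The proteases were 2 higher and 1 lower of 15, and the receptors 6 higher and 2 lower of 20. The shares over all genes in that fit were 10.1% higher and 7.38% lower, and those of the proteases were near them.

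Between the sample types the matrix genes differed widely. Of 49 tested, 32 were lower and 8 higher in F4/80+ preparations than in kidney by the edgeR test at an adjusted p under 0.05, where 31.8% of all 13578 genes were lower and 32.4% higher. Their median log2 fold change was -1.24 against 0.00 over all genes. In 26 of the 49 every preparation was below every kidney (53.1% against 27.0% of all genes), and in 0 every preparation was above (against 15.2%). The 26 include Col1a1, Col3a1, Lamc3, Col8a1 and Col23a1. These were too low in preparations for the genotype test there and entered through their kidney counts, so that their gap was built in. With no scaling factors 33 were lower and 6 higher, against 37.1% and 26.4% of all genes, and the medians were -1.35 and -0.13. Sample type, isolation and table cannot be told apart in this comparison.

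The lowest log2 fold changes were those of collagens I and III and of Lamc3, a laminin gamma chain. Col1a1 was at 29.3 to 81.6 CPM in kidney, with a median of 32.2 CPM, and in the preparations it was at 0.872, 0 and 0 CPM in Arg/Arg and at 0.628, 0.705 and 0 CPM in Trp/Trp. Its log2 fold change was -6.68 ± 0.458 (SE, adjusted p = 2.75e-08, edgeR). Col3a1 was at 0.379 to 1.88 CPM in the preparations, a log2 fold change of -5.90 ± 0.289 (SE), and Col1a2 at 0.632 to 4.67 CPM, one of -4.97 ± 0.257 (SE). Over the 6 preparations Col1a1 rested on 19 counts, Col3a1 on 49 and Lamc3, given below, on 27. All 3 were too low there for the genotype test and entered this comparison through their kidney counts, so that a gap was built into their being tested. Among the 42 genes also tested in both genotype comparisons, 26 were lower and 8 higher, with a median of -0.86. Over all genes 31.8% were lower and 32.4% higher.

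Col14a1, at -4.59, and Col16a1, at -4.13, both fibril-associated, and Col6a3, at -3.87, followed the fibrillar collagens. The proteoglycans and glycoproteins fell less, with Bgn at -3.0, Dcn at -2.71, Fn1 at -1.71, Sparc at -1.31 and Eln at -1.24. Fbln5 and Fbn1 had -1.77 and -0.77. Fbln2 was the interstitial gene that rose. It was at 5.98 to 9.28 CPM in kidney and at 8.12 to 26.2 CPM in preparations, with a log2 fold change of 1.37 ± 0.224 (SE, adjusted p = 9.53e-05, edgeR), and the sample types overlapped. Col5a2, which forms fibrils with collagen I, had 0.65 with an adjusted p of 0.05 in edgeR, just on the upper side of the threshold, and 16.6 to 103 CPM in preparations against 23.6 to 42.1 CPM in kidney. It lies 24.6 kb from Col3a1, tail to tail, on chromosome 1, and the pair stood apart here. Altogether 14 of the 16 interstitial genes fell and 1 rose, against 31.8% and 32.4% of all genes, with a median of -2.24. Leaving out Col1a1 and Col3a1, which passed the filter through kidney alone, 12 of 14 fell and 1 rose, with a median of -1.74.

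**Figure D3:**
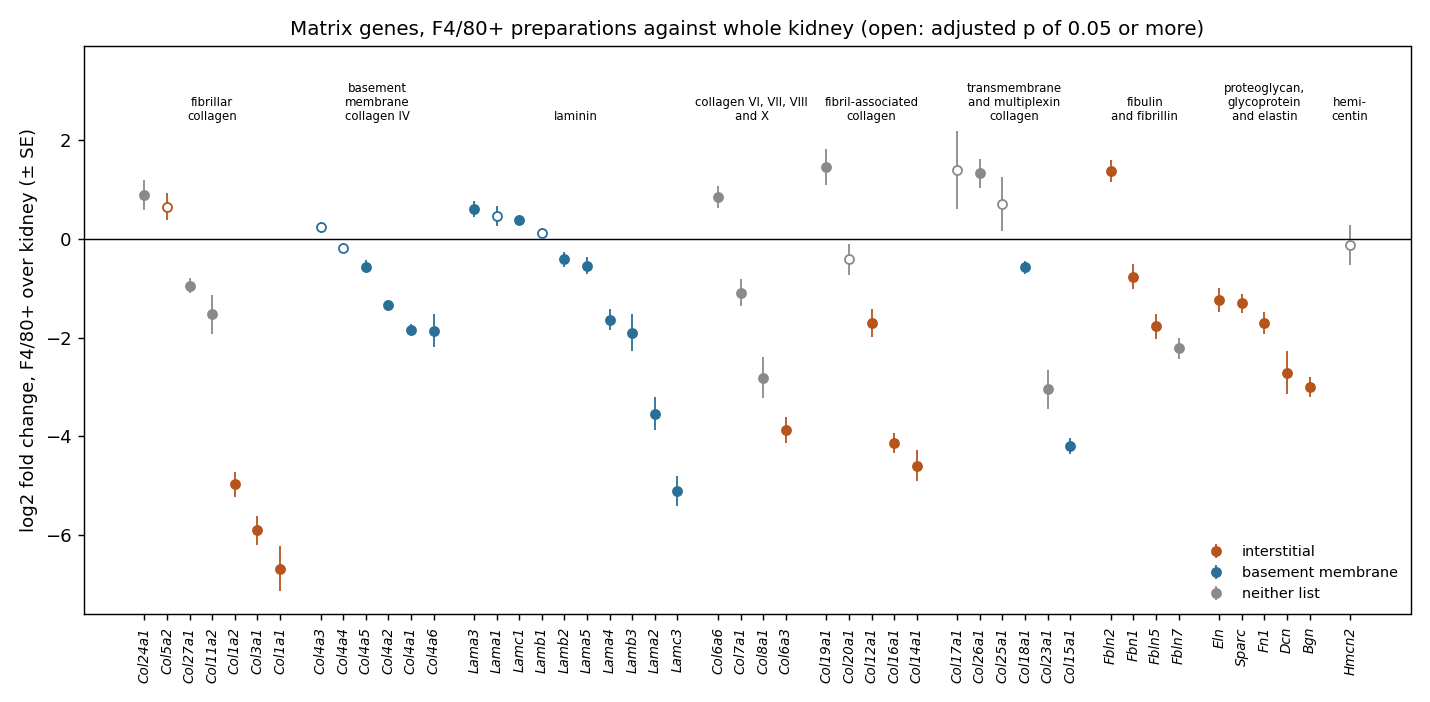
Log2 fold change of F4/80+ preparations over whole kidney for 48 matrix genes (± SE, filled where the edgeR adjusted p was under 0.05), grouped by role and coloured by matrix class. Col1a1, Col3a1 and Lamc3 lie lowest at -6.68, -5.90 and -5.11, and the highest filled point is Col19a1 at 1.45.

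Basement membrane genes split by chain. Col4a1 fell from 291 to 358 CPM in kidney to 60.4 to 101 CPM in preparations (log2 fold change -1.84 ± 0.106 (SE), adjusted p = 5.1e-09, edgeR), and Col4a2 fell by 1.35 on the log2 scale. The sample types did not overlap for either chain. Col4a3 was at 286 to 411 CPM in kidney and 299.6 to 447 CPM in preparations, with 0.23 ± 0.110 (SE, adjusted p = 0.082, edgeR), and Col4a4 at 309.6 to 412 and 237 to 349 CPM, with -0.19 ± 0.103 (SE, adjusted p = 0.118, edgeR). Col4a3 passed as higher in DESeq2 (adjusted p = 0.0291) and without Trp/Trp kidney replicate 2 (0.0485), and Col4a4 as lower with no scaling factors (0.0327) and without Trp/Trp preparation 2 (0.0428). Per kilobase, the ratio of Col4a3 to Col4a1 was 0.598 to 0.974 in kidneys and 2.43 to 5.54 in preparations. Col4a5 fell by 0.57 and Col4a6 by 1.86 on the log2 scale. The 10 podocyte markers summed to 181 to 367 CPM in preparations and to 508 to 766 CPM in kidneys, the 12 proximal tubule markers to 18420 to 57117 and 32217 to 38602 CPM and the 12 distal nephron markers to 6000 to 21506 and 7628 to 8276 CPM. Their part in the Col4a3 and Col4a4 levels was not tested.

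Laminin chains also parted. Lama3, of laminin-332, rose, with 43.0 to 55.9 CPM in kidneys and 49.9 to 93.6 CPM in preparations (log2 fold change 0.60 ± 0.167 (SE), adjusted p = 0.00575, edgeR). Lamb3, the beta chain of the same trimer, fell by 1.90 on the log2 scale, from 5.23 to 11.3 CPM to 0.470 to 3.50 CPM. The sample types overlapped for Lama3 and did not for Lamb3. Per kilobase of exon, Lama3 was at 4.50 and Lamb3 at 1.01 CPM per kb in kidney, and they were at 6.29 and 0.236 CPM per kb in preparations. Lamc1 rose by 0.38 (adjusted p = 0.00266, edgeR), Lamb1 and Lama1 did not pass at 0.12 and 0.46, and Lama5 and Lamb2 fell by 0.55 and 0.42. The call of Lamb2 was lost without Arg/Arg kidney replicate 2 or 3, Trp/Trp kidney replicate 1, Arg/Arg preparation 2 or Trp/Trp preparation 2 (adjusted p of 0.0522 to 0.0668, edgeR). Lama2, the alpha chain of muscle and peripheral nerve laminin, and Lamc3 fell by 3.54 and 5.11.

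**Figure D4:**
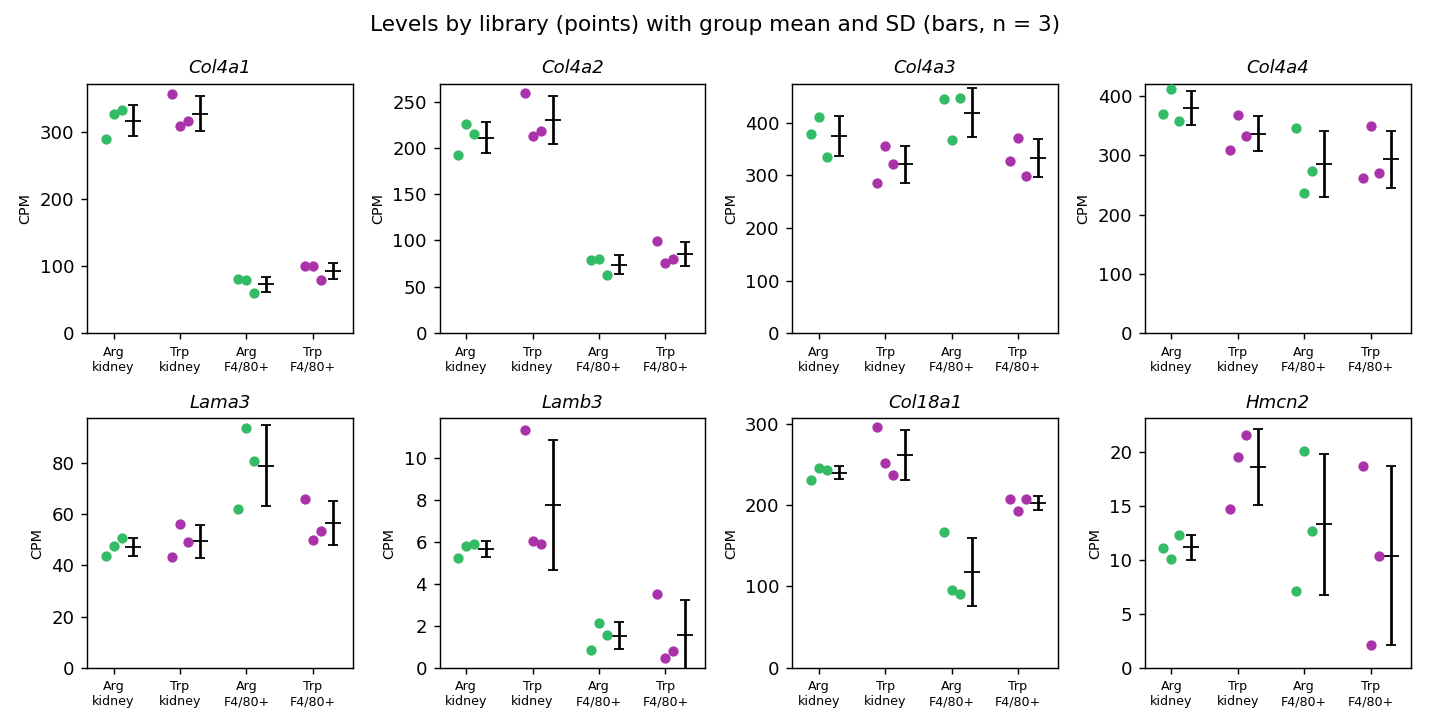
CPM of 4 collagen IV chains, Lama3, Lamb3, Col18a1 and Hmcn2 in each library (points; Arg/Arg green, Trp/Trp purple), with group means and SD (bars, n = 3). Col4a1 and Col4a2 are lower in every F4/80+ library than in any kidney, while Col4a3 and Col4a4 overlap, and Hmcn2 levels overlap between the genotypes in preparations but not in kidney.

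The multiplexins parted as well, although both sit in basement membrane zones. Col15a1 fell from 26.7 to 43.8 CPM to 1.17 to 2.33 CPM (log2 fold change -4.19 ± 0.167 (SE), adjusted p = 2.41e-10, edgeR), while Col18a1 fell from 231 to 296 CPM to 91.1 to 208 CPM (-0.58 ± 0.135). Of the 19 basement membrane genes 12 fell and 3 rose, against 31.8% and 32.4% of all genes, with a median of -0.57. Leaving out Lamc3, which passed the filter through kidney alone, 11 of 18 fell and 3 rose, with a median of -0.56. Outside both classes, Col19a1 rose by 1.45, Col26a1 by 1.32, Col24a1 by 0.88 and Col6a6 by 0.84 on the log2 scale, and Hmcn2 had -0.13. The call of Col24a1 was lost without Arg/Arg preparation 1 (adjusted p = 0.0672, edgeR). Col27a1, a fibrillar collagen of cartilage and other tissues, fell by 0.95.

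Stromal markers were not uniformly low in the preparations. Of 10 fibroblast, pericyte and smooth muscle markers tested, 4 were lower and 3 higher at an adjusted p under 0.05 in edgeR. Their median log2 fold change was -0.29. Pdgfra, a fibroblast receptor, was the lowest at -5.02, while the contractile genes Acta2 and Myh11 and the pericyte gene Rgs5 had 1.38, 1.65 and 1.79. Endothelial markers summed to 349 to 579 CPM in preparations and 815 to 1087 CPM in kidneys. Of 12 tested, 9 were lower and 1 higher, with a median of -0.99, and Plvap was the lowest at -7.11. Among the other matrix pathway genes the test found 5 of 8 basement membrane components lower and 2 higher (Nid1, nidogen-1, -2.71, Agrn, agrin, -1.68, Fras1 1.16), 18 of 24 modification genes lower and 3 higher (Loxl1 -4.35, Bmp1, the procollagen C-proteinase, -3.04, and Serpinh1, the collagen chaperone, -1.54), 8 of 17 proteases lower and 5 higher (Ctsk -3.51, Adamts1 1.51), and 10 of 21 receptors lower and 7 higher (the collagen receptors Mrc2, -4.99, and Ddr2, -2.95, and the integrin chains Itga6, 1.55, Itgb6, 1.49, and Itgav, 1.41). Over all genes 31.8% were lower and 32.4% higher, and the shares of proteases and receptors called higher were near the latter. Like Col1a1, the genes Loxl1, Ctsk and Mrc2 were too low in preparations for the genotype test there and entered through their kidney counts.

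The balance of the classes was read per library as the log2 ratio of summed interstitial to summed basement membrane CPM, over the 16 and 19 genes of both tables and with no test, because it is a score over chosen genes. It was -1.37, -1.41 and -1.22 in Arg/Arg kidneys and -0.63, -1.25 and -1.12 in Trp/Trp kidneys. The genotypes overlapped, and Trp/Trp replicate 1 was the highest of all 12 libraries. In preparations it was -2.63, -3.32 and -3.51 in Arg/Arg and -2.77, -1.91 and -2.55 in Trp/Trp, overlapping between genotypes and below every kidney. Group means were -1.34 ± 0.0974 and -1.0 ± 0.328 in Arg/Arg and Trp/Trp kidneys and -3.15 ± 0.461 and -2.41 ± 0.448 in Arg/Arg and Trp/Trp preparations (SD, n = 3). Abundant genes weigh most in these sums. In kidney Bgn, Sparc and Fbln5 had means of 199, 189 and 147 CPM, against 40.3 and 61.8 CPM for Col1a1 and Col3a1.

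**Figure D5:**
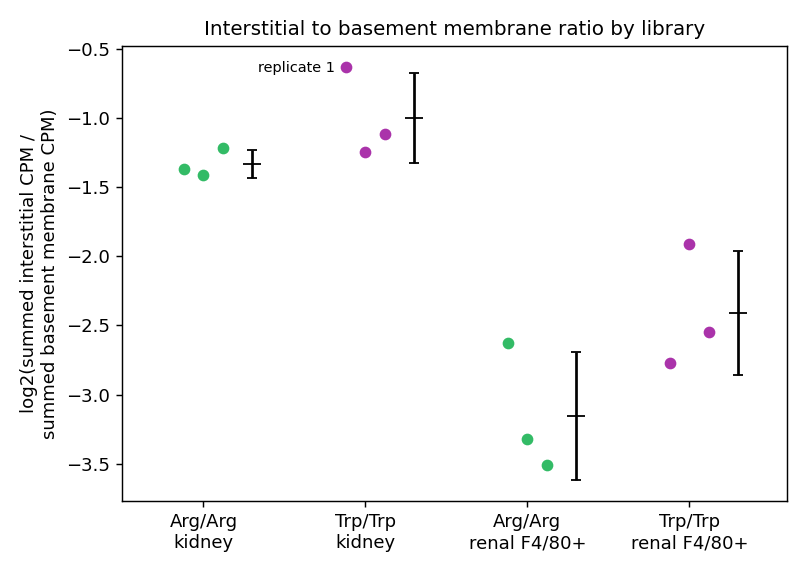
Log2 ratio of summed interstitial to summed basement membrane CPM in each library (points) with group means and SD (bars, n = 3). All preparations lie between -3.51 and -1.91, below all kidneys, and Trp/Trp kidney replicate 1 lies highest at -0.63.

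The genotype difference itself was compared between sample types as an interaction. The edgeR test called 0 of 49 matrix genes and 0 of 13578 genes (0%), with 3 matrix genes higher and 1 lower at an unadjusted p under 0.05 against 3.22% and 3.56% of all genes, and DESeq2 called 7 of all genes (0.0510%). The 4 were Col7a1 at 1.27, Col1a2 at 1.23, Col18a1 at 0.56 and Lama3 at -0.70, with adjusted p of 0.684 to 0.706 in edgeR. Hmcn2 had -1.23 (adjusted p = 0.753, edgeR). Without Arg/Arg preparation 1 the test called 580 genes (4.23%) and 4 matrix genes, among them Col14a1 at 2.02, Col18a1 at 0.78 and Lama3 at -0.91, with adjusted p of 0.033, 0.0355 and 0.048 in edgeR.

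The authors' deposited kidney table gave no p-value for 17 of 65 matrix genes (26.2%), against 5.24% of all its genes. Col1a1, Col1a2, Col3a1, Dcn, Eln, Fbln1, Fn1 and Postn were among the 17. In a DESeq2 fit of the same counts, the library with the largest Cook's distance, a measure of how much 1 library moves a fit, was Trp/Trp replicate 1 for 15 of the 17 and for 562 of the 805 such genes in all (69.8%). No source used here states why these values are missing. Of the 50 matrix genes in the deposited F4/80+ table, 14 had none (28.0% against 13.6% of all genes).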

How the data were processed

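Whole kidney and renal F4/80+ libraries were grouped by the labels, 3 per group, and matched to columns by the short names in their titles. The deposited tables, 1 per sample type, held raw counts per gene, which were whole numbers. The authors also deposited DESeq2 columns per the file headers: a log2 fold change, its linear ratio, score columns (SE and Wald statistic), p-values and adjusted p-values, and a signal column (mean of size-factor scaled counts). The tools STAR, DRAGEN and DESeq2 and the build mm10 were listed, without roles or versions, per the submitters' processing notes. Not given in the sources used here were strand use and annotation release. Kidney log2 values were turned to Trp/Trp over Arg/Arg by sign against the counts.

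Software was DESeq2 1.42.0, limma 3.58.1 and edgeR 4.0.16 in R 4.3.3, and pandas 2.3.3 and matplotlib 3.10.9 in Python 3.11.15. Genes were kept by filterByExpr (minimum count 10, minimum total 15), scaled by TMM and compared by the quasi-likelihood test of edgeR, adjusted over all genes by Benjamini-Hochberg (threshold 0.05), per table for genotype, and over nuclear protein-coding genes of both tables for sample type (genotype as covariate) and the interaction. SE is the absolute log2 fold change over the square root of F. p-values measure the spread among the labelled biological replicates. The procedure was also run on simulated counts with the same spread for every gene and changes planted in well-counted genes only. That run does not measure its error in these libraries. Exon lengths and neighbours came from GENCODE M21 (GRCm38), and 17 of the 66 genes share exon bases with a gene on the other strand. Named genes were fixed chains of each class, those past the test or, if more than 12, the 6 with the largest fold in each direction, or, if fewer than 6, the 6 of smallest p at mean counts of 50 or more, the 2 most abundant per role and up to 3 per pathway list. A gene of the set is counted but not reported here. Other names were chosen after their values were seen. The genes and lists were chosen with earlier results of these data known. Alternatives were other size factors, no filter, DESeq2, a replicate block and each library left out.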

Additional observations from a re-analysis of the deposited data

How the results depend on the processing

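Scaling, filtering, DESeq2, a replicate block and each library left out were tried, and the fit with no scaling factors was chosen after seeing the data. DESeq2 gave 15 genes and 1 matrix gene (Hmcn2) in the kidney genotype comparison, 4 genes in that of F4/80+ preparations and 7 in the interaction, where edgeR gave 0. Over the fits that left out a library, the interaction gave 0 to 580 genes and 0 to 4 matrix genes, the latter both without Arg/Arg preparation 1.

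Some log2 fold changes turned sign, and the cause was not tested. In kidney, with a library left out in turn, Col1a1 ranged from -0.10 to 0.78, Col1a2 from -0.01 to 0.51, Col3a1 from -0.06 to 0.49, Eln from -0.11 to 0.48, Hmcn1 from -0.10 to 0.80 and Col4a6 from -0.13 to 0.16, each lowest without Trp/Trp replicate 1. Col4a1 ranged from -0.03 to 0.06, Lama5 from -0.02 to 0.04, Lamb1 from -0.05 to 0.00 and Lamc1 from -0.07 to 0.05, and Lamb1 and Lamc1 had 0.00 and 0.01 with no scaling factors. In preparations, with 1 left out in turn, Col14a1 ranged from -0.20 to 2.26, Col15a1 from -0.27 to 0.08, Col27a1 from -0.35 to 0.24, Col4a2 from -0.12 to 0.21, Col4a5 from -0.35 to 0.03, Col6a3 from -1.33 to 0.03 and Hmcn2 from -1.32 to 0.02. With no scaling factors Col15a1 had 0.12, Col27a1 0.27, Col4a4 0.13, Col4a5 0.11 and Col6a3 0.04. Between sample types Hmcn2 ranged from -0.40 to 0.15, and the Col14a1 interaction from -0.37 to 2.02.

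Between sample types, Lamb2 also lost its call without the genotype covariate (adjusted p = 0.063), Lamc1 with no scaling factors (0.0703) and Col24a1 with no scaling factors (0.0511) or a replicate block (0.0572). Between genotypes, the correlations of same-numbered deviations were -0.0767, -0.0161 and -0.0112 in kidney and -0.306, -0.486 and 0.18 in preparations. With so few libraries per group, these values cannot decide whether replicate numbers pair the samples. Pairing of kidneys with preparations was not tested. With a replicate block Hmcn2 had 0.71 in kidney (adjusted p = 0.908, edgeR), and no matrix gene was called for genotype. The preparations held 6.9 to 11.1 M nuclear protein-coding counts, which limits the genotype comparison of genes such as Col1a1 and Col3a1 there.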
